A study of Mus musculus with 24 samples.

Results

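The response of the plantaris to overload in mice without myostatin was described from 12 of the study's 24 whole-transcript arrays, 6 of overloaded and 6 of untreated Mstn-/- muscle. The plantaris is an ankle extensor and toe flexor of the hindlimb, and it takes over load when its synergists are removed. The arrays were chosen by their titles alone, so no measured value entered the choice. The other 12 arrays, 6 of untreated and 6 of overloaded wildtype muscle, served to show where the response differed by genotype. All mice were 3 months old and each array held the muscle of 1 side. In the overloaded mice of both genotypes the soleus and most of the gastrocnemius had been cut out on both sides under pentobarbitone (50 mg/kg), while the untreated mice had no operation, so that overload, anaesthesia and wounding differ together between the groups. Both Mstn-/- groups carry the knockout, while the sources used here give neither the way it was made nor the strain and sex of the mice, the length of the overload or the time of day of sampling. Each group holds 6 samples called biological replicates, and p-values measure the spread between these. Probe sets with exactly 1 gene symbol were used, and where a gene had several, the one brightest on average over the 24 arrays stood for it. This gave 19937 genes, of which 14499 had a group mean above an intensity of 98.9, the 30th percentile of annotated probe sets, and were tested.

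Myostatin, encoded by Mstn, is a TGF-beta family protein that muscle fibres secrete and that acts on activin type II receptors to limit fibre number and size, and mice without it have enlarged muscles rich in fast glycolytic fibres. Removal of synergists makes the remaining muscle grow within weeks, and the same period brings inflammation, proliferation of satellite cells and connective tissue cells, deposition of matrix and a shift of contractile proteins toward slower forms. The overload in Mstn-/- muscle thus acts on a tissue that is already large and that lacks one of the signals restraining growth. Array intensities are on a linear scale unless called log2, a fold is the ratio of the geometric means of the overloaded and untreated arrays, and a gene is said to have risen or fallen where limma's adjusted p was under 0.05. Where the range of a gene over arrays is given, the overloaded and untreated Mstn-/- arrays did not overlap unless the text says so.

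The Mstn probe set gave a signal in the knockout that lay below that of untreated wildtype muscle. In Mstn-/- its intensity ran from 370.3 to 646 (median 467) on the untreated and from 234 to 404 (median 298) on the overloaded arrays. The groups overlapped at their edges, and the fall was 1.60-fold (log2 -0.68 ± 0.13, SE, limma adjusted p = 5.6e-05). In wildtype muscle it ran from 1099 to 1351 (median 1235) without and from 291 to 395 (median 332) with overload, so that the fall was larger there (difference in response 1.18 ± 0.18, adjusted p = 6.5e-05). The sources used here do not say if this probe set covers sequence that the knockout removed. The summed intensity of 8 skeletal muscle identity genes ran from 84328 to 88619 (median 87613) on the untreated and from 80246 to 85722 (median 81167) on the overloaded arrays. Array medians lay between 140.4 and 144.1. On the 12 arrays the first principal component held 81.9% of the variance and set the groups apart, the untreated arrays scoring from -30.4 to -22.9 and the overloaded ones from 17.3 (replicate 6) to 34.8. In a bulk muscle a lower signal can come from fewer cells of a type or from less RNA per cell, and these cannot be told apart.

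Overload moved most of the transcriptome of Mstn-/- muscle, mostly by little. The test called 8789 of 14499 genes (60.6%), with 3932 higher (27.1%) and 4857 lower (33.5%), but at least 2-fold rises numbered 561 (3.87%) and at least 2-fold falls 106 (0.731%). The overloaded and untreated arrays did not overlap at all for 5789 genes (39.9%), of which 2868 were higher (19.8%) and 2921 lower (20.1%). After a shift of all arrays to an equal median the split became 3295 higher and 6767 lower. The median log2 difference of all tested genes was -0.06 in Mstn-/- and -0.06 in wildtype. In wildtype muscle 9560 genes were called (65.9%), 4396 higher (30.3%) and 5164 lower (35.6%). The response itself differed between the genotypes for 2516 genes (17.4%), with a more positive difference in Mstn-/- for 1293 (8.92%) and a more negative one for 1223 (8.44%). Among the 1837 genes called both in Mstn-/- and for that difference (12.7%), the response was smaller in Mstn-/- than in wildtype for 1304 (8.99%), larger for 414 (2.86%) and opposite, with a call in both genotypes, for 119 (0.821%), of which 80 rose (0.552%) and 39 fell (0.269%) in Mstn-/-. For 6952 genes called in Mstn-/- no difference between the genotypes was called (47.9%). A further 670 genes (4.62%) responded in wildtype and differed by genotype without a call in Mstn-/-.

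The largest rises were those of secreted, matrix and myeloid genes. The imprinted gene Mest, active in growing mesoderm, ran from 124 to 176 (median 138) on the untreated and from 2452 to 4034 (median 3041) on the overloaded arrays, a rise of 22.4-fold. C1qtnf3, a secreted C1q/TNF-related protein, ran from 92.0 to 130.4 (median 120.3) on the untreated and from 1497 to 2797 (median 2196) on the overloaded arrays. Postn, the matricellular protein periostin, ran from 278 to 749.5 (median 622) on the untreated and from 6781 to 9437 (median 8391) on the overloaded arrays. In these genes every overloaded array lay far above every untreated one. The secreted Wnt-binding proteins Sfrp2, Sfrp1 and Sfrp4 rose 10.3-fold, 7.44-fold and 6.85-fold, and the collagen-associated secreted protein Cthrc1 rose 7.71-fold. Tnc, the matrix glycoprotein tenascin C, rose 7.28-fold, and the collagen-degrading cathepsin Ctsk 6.86-fold. The spread between overloaded muscles was wide for the chemokine Ccl8, which ran from 50.8 to 74.3 (median 58.7) on the untreated and from 225 to 1246 (median 421) on the overloaded arrays. Wfdc17, a secreted protein of myeloid cells, and Ms4a7, a macrophage membrane protein, rose 7.84-fold and 6.98-fold.

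**Figure D1:**
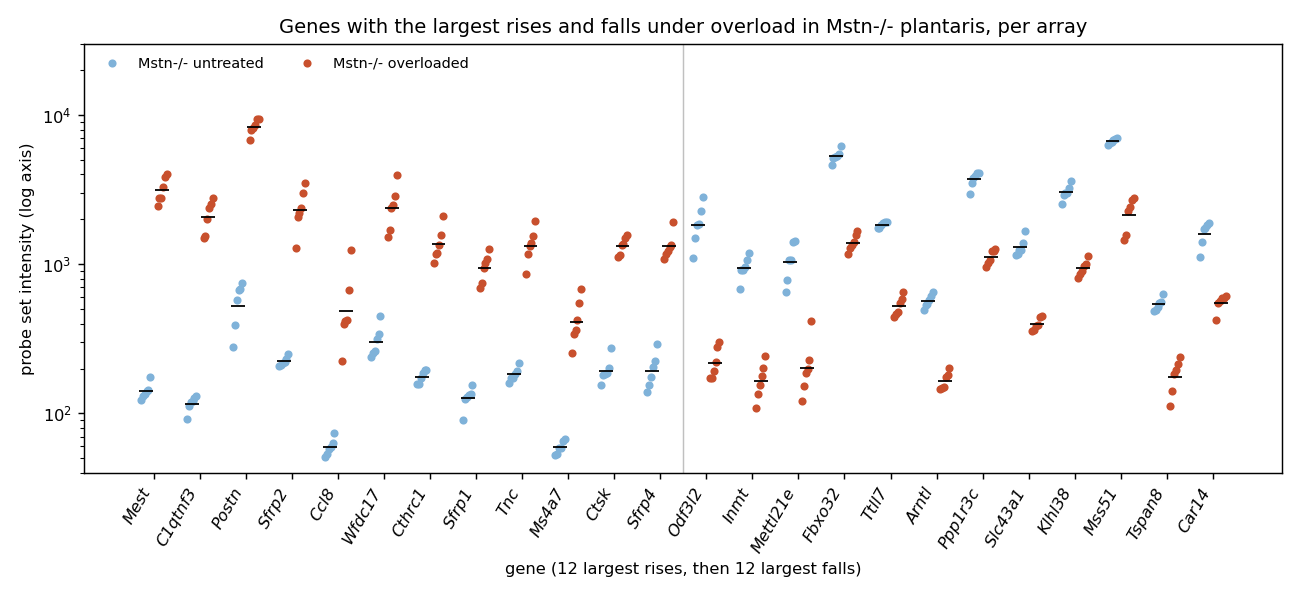
Probe set intensity (log axis) of the 12 genes with the largest rises and the 12 with the largest falls in Mstn-/- plantaris, 1 point per array and 6 arrays per group, with the geometric mean as a bar. The overloaded and untreated arrays do not overlap in any of the 24, which was a condition of the choice, and Mest shows the widest gap between its groups, 22.4-fold.

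The largest falls were those of muscle enzymes, regulators of protein breakdown and a clock gene. Odf3l2, named after a protein of sperm tail fibres, ran from 1106 to 2828 (median 1857) on the untreated and from 172 to 299.6 (median 208) on the overloaded arrays, a fall of 8.40-fold. It had been higher in untreated Mstn-/- than in untreated wildtype muscle (log2 difference 2.23 ± 0.17, adjusted p = 5.2e-10), where it ran from 311 to 432 (median 397). The methyltransferase genes Inmt and Mettl21e fell 5.73-fold and 5.13-fold. Fbxo32, the ubiquitin ligase atrogin-1, ran from 4598 to 6209 (median 5279) on the untreated and from 1180.4 to 1682 (median 1376) on the overloaded arrays, a fall of 3.80-fold against 2.54-fold in wildtype (difference in response -0.58 ± 0.18, adjusted p = 0.026). The tubulin-modifying enzyme Ttll7 ran from 1740.1 to 1927 (median 1859.6) on the untreated and from 439.8 to 653 (median 516) on the overloaded arrays, with little spread within either group. Ppp1r3c, which brings protein phosphatase 1 to glycogen, fell 3.32-fold, Klhl38 3.22-fold, Slc43a1, a transporter of large neutral amino acids, 3.27-fold, the mitochondrial protein Mss51 3.14-fold, the tetraspanin Tspan8 3.06-fold and the membrane carbonic anhydrase Car14 2.89-fold. The clock gene Arntl is described with the other clock genes.

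Most imprinted genes of the list rose. Of 17 tested genes of the imprinted list 15 were higher and 1 lower, with a median log2 difference of 0.96 (wildtype 1.31). Igf2, a fetal growth factor, ran from 639.7 to 835 (median 764) on the untreated and from 3353 to 3994 (median 3731) on the overloaded arrays. Plagl1, a zinc finger regulator of other imprinted genes, rose 6.63-fold, the membrane protein Dlk1 4.32-fold, and the paternally expressed zinc finger gene Peg3 1.60-fold. Grb10, an adaptor that dampens insulin signalling, rose 1.71-fold, and Cdkn1c, a cell cycle inhibitor, 1.96-fold. The long noncoding RNA Meg3 ran from 738 to 1213 (median 1019) on the untreated and from 2937 to 5276 (median 3527) on the overloaded arrays. Its rise of 3.86-fold was smaller than the 9.72-fold of wildtype (difference in response -1.33 ± 0.20, adjusted p = 4.8e-05).

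Dlk1, Meg3 and Rian lie in the imprinted Dlk1-Dio3 domain, whose maternal chromosome produces long noncoding RNAs that are cut into a large set of microRNAs. The array carries probe sets for 40 microRNA genes between Dlk1 and Dio3, and they were looked at as a set after their values had been seen. Without any intensity filter 36 of the 40 were higher under overload and 0 lower, against 20.6% and 30.1% of all 19937 genes, and for 35 of the 40 no overloaded array overlapped an untreated one (14.9% of all genes). Their median log2 difference was 1.09. Among the 256 other microRNA genes on the array 30 were higher and 49 lower, with a median of -0.06. Of the 25 genes of the domain that passed the filter, 10 had both untreated group means below it. Such probe sets read the hairpin or its host transcript and not the mature microRNA. The mature sequences of the 6 genes with the largest tested rises are given 5′ to 3′ from RefSeq (GRCm38.p6, chromosome 12, plus strand). Both arms of each are shown, with the seed, bases 2 to 8, in capitals, to show that these 6 genes differ in seed:
mmu-miR-380-5p: aUGGUUGAccauagaacaugcg
mmu-miR-380-3p: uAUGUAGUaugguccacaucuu
mmu-miR-377-5p: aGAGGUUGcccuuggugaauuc
mmu-miR-377-3p: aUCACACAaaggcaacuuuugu
mmu-miR-382-5p: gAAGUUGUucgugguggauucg
mmu-miR-382-3p: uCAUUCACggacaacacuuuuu
mmu-miR-329-5p: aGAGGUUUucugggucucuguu
mmu-miR-329-3p: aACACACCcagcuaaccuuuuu
mmu-miR-300-5p: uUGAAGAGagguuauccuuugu
mmu-miR-300-3p: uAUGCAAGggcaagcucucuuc
mmu-miR-323-5p: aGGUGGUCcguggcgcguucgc
mmu-miR-323-3p: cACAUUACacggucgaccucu
Mir380 rose 6.51-fold, Mir377 6.01-fold, Mir382 5.42-fold, Mir329 4.90-fold, Mir300 4.35-fold and Mir323 4.18-fold. Mir380 ran from 20.6 to 27.8 (median 22.8) on the untreated and from 124 to 215 (median 138) on the overloaded arrays. Mir382 ran from 55.9 to 79.0 (median 71.9) on the untreated and from 273 to 698 (median 314) on the overloaded arrays. All 6 had untreated medians below the intensity filter, from 22.8 for Mir380 to 89.8 for Mir329, so that the sizes and the order of their folds are uncertain. Mature sequences were looked up only for the domain's genes that passed the filter, rose and did not overlap. They matched for 20 genes, 38 sequences in all, and 0 of these shared a seed with another. Genes below the filter were not looked up, so shared seeds among all the genes that rose were not tested. Not every gene of the domain moved as far. Rtl1, the paternally expressed coding gene, had a log2 difference of 0.24 ± 0.10 (adjusted p = 0.035, and 0.12 without untreated replicate 1), its neighbour Mir540 one of 0.19 ± 0.08 (adjusted p = 0.055, and 0.048 without overloaded replicate 6) and Mir666 one of -0.04 ± 0.07 (adjusted p = 0.64).

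**Figure D2:**
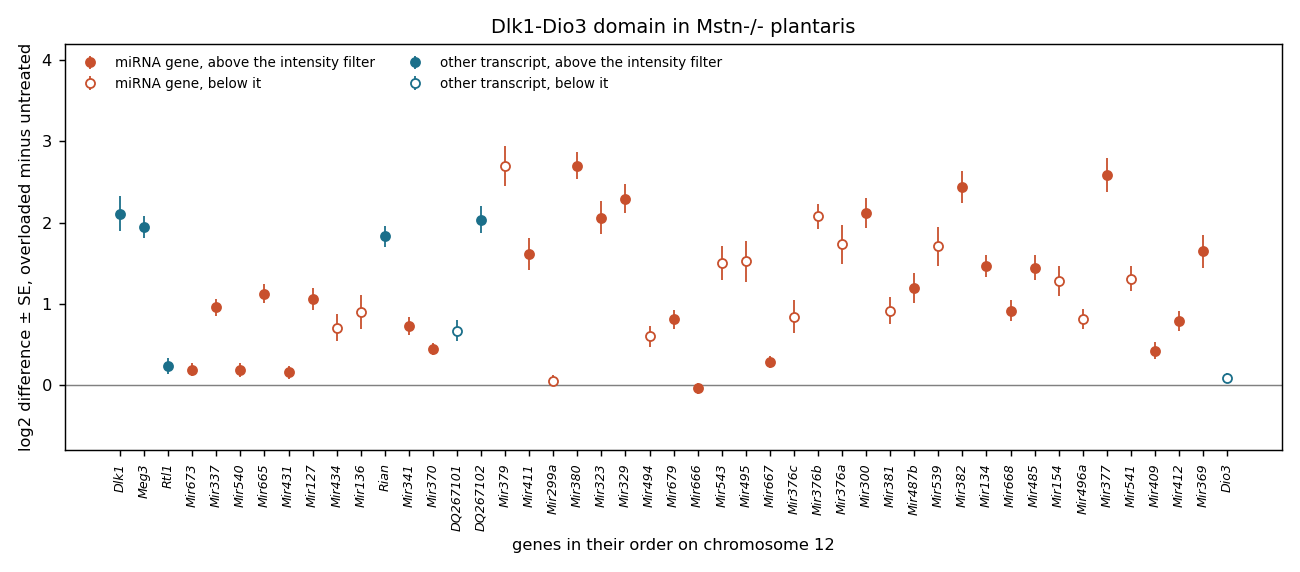
Log2 difference between overloaded and untreated Mstn-/- arrays (points, ± SE, 6 arrays per group) for the genes of the Dlk1-Dio3 domain in their order on chromosome 12, filled where the gene passed the intensity filter and open where it did not. Most microRNA genes lie above 0, Mir380 at 2.70 among the highest, while Mir666 lies at -0.04.

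The myostatin and activin list, of ligands, receptors and antagonists, had no common direction. Of 21 tested members 6 were higher and 9 lower, with a median of -0.01 (wildtype -0.04), against 27.1% and 33.5% of all genes. Both activin type II receptors fell, Acvr2b 1.57-fold and Acvr2a 1.54-fold, and the fall of Acvr2a was larger than in wildtype, where its log2 difference was -0.14 (difference in response -0.49 ± 0.09, adjusted p = 7.4e-04). Untreated Mstn-/- muscle had more Acvr2a than untreated wildtype muscle (log2 difference 0.62 ± 0.07, adjusted p = 1.8e-07). Between the overloaded groups no difference was called for it (0.13 ± 0.07, adjusted p = 0.13). Wfikkn2, which encodes a secreted protein that binds myostatin, fell 1.54-fold. Fst, the activin and myostatin antagonist follistatin, rose 1.59-fold, and the follistatin-like protein gene Fstl1 5.41-fold. Of the intracellular mediators Smad2 and Smad3 rose 1.33-fold and 1.29-fold, and Smad4, their shared partner, fell 1.20-fold.

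The TGF-beta branch rose more evenly. Of 18 tested genes 15 were higher and 1 lower, with a median log2 difference of 0.64 (wildtype 0.87), and for 10 of them the response was more negative in Mstn-/- than in wildtype. Tgfb1, the main ligand, ran from 211 to 309 (median 241) on the untreated and from 450.0 to 539.8 (median 506) on the overloaded arrays. The coreceptor Eng rose 1.67-fold, the type II receptor Tgfbr2 1.85-fold, and the latent binding proteins Ltbp1 and Ltbp4 1.58-fold and 1.56-fold. The type I receptor Tgfbr1 fell 1.24-fold in Mstn-/- and had a log2 difference of 0.25 in wildtype (adjusted p = 3.6e-04; difference in response -0.55 ± 0.08, adjusted p = 3.0e-05). The secreted Wnt modulators and ligands had 6 of 26 genes higher and 5 lower, no more than the shares of all genes (27.1% and 33.5%). After the shift to an equal median 11 were lower, when 46.5% of all genes were. Beside the large rises of Sfrp2, Sfrp1 and Sfrp4 their relative Sfrp5 fell 1.94-fold, and the ligands Wnt5a and Wnt4 fell 1.58-fold and 1.33-fold. In the BMP list 9 of 26 were higher and 9 lower, near the shares of all genes (27.1% and 33.5%). The ligands Bmp4 and Bmp6 fell 1.55-fold and 1.51-fold, while the target genes Id2, Id3 and Id1, which encode inhibitors of basic helix-loop-helix factors, rose 2.67-fold, 1.45-fold and 1.42-fold.

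Collagens and the enzymes that make them rose. In the fibrillar collagen list 8 of 11 were higher and 0 lower, with a median log2 difference of 0.85 (wildtype 1.39). Col3a1 ran from 437 to 694 (median 489.8) on the untreated and from 2017 to 3039 (median 2506) on the overloaded arrays. Col1a1 and Col1a2, the chains of type I collagen, rose 4.58-fold and 3.78-fold, whereas Col24a1, Col27a1 and Col11a2 did not pass the test (log2 differences 0.05, 0.04 and -0.03). Among collagen VI and the collagens that bind fibrils or membranes 11 of 14 were higher and 1 lower, led by Col8a1 (6.17-fold), Col12a1 (5.86-fold) and Col14a1 (5.51-fold). The lysyl hydroxylase Plod2, which prepares collagen for cross-linking, ran from 111 to 146 (median 140.2) on the untreated and from 514 to 884 (median 789) on the overloaded arrays. Of the hydroxylase and processing genes 15 of 19 were higher and 1 lower, and for 10 the rise was smaller than in wildtype or the difference more negative. The collagen chaperone Serpinh1 rose 2.59-fold and the procollagen proteinase Bmp1 2.50-fold. Lox, the founding lysyl oxidase, rose 2.60-fold against 5.72-fold in wildtype (difference in response -1.14 ± 0.26, adjusted p = 0.003), and Loxl4 fell 1.28-fold. Of 17 basement membrane genes 9 were higher and 0 lower, among them the laminin chains Lama4 (2.65-fold) and Lamb1 (2.63-fold), while Lama2, the laminin chain of adult muscle fibres, did not pass (log2 difference 0.07 ± 0.06, adjusted p = 0.32). After a shift of all arrays to an equal median, 3 basement membrane genes were called lower.

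Matricellular and elastic fibre genes rose in most cases. Of 29 tested genes 25 were higher and 0 lower, with a median log2 difference of 1.10 (wildtype 1.62), and 13 had a more negative response than in wildtype. Mfap2 and Mfap4, microfibril-associated proteins, rose 4.11-fold and 5.67-fold, and the thrombospondin Thbs2 4.81-fold. Ccn3, a secreted regulator of the CCN family, rose 2.05-fold against 6.37-fold in wildtype (difference in response -1.64 ± 0.27, adjusted p = 1.6e-04). Of the proteoglycans Aspn, Lum and Bgn rose 5.09-fold, 4.81-fold and 3.08-fold, and Acan, the large proteoglycan of cartilage and tendon, rose 2.32-fold against 6.33-fold in wildtype (difference -1.45 ± 0.27, adjusted p = 6.1e-04). In both genotypes the untreated mean of Acan lay below the intensity filter, which it passed only through the overloaded groups. Its folds and their difference are therefore uncertain. Prg4, the lubricant proteoglycan of joints and gliding surfaces, fell 1.70-fold. The tendon list had 11 of 13 genes higher and 0 lower. Tnmd, a membrane protein of tenocytes, ran from 487 to 779 (median 664) on the untreated and from 2712 to 4002 (median 3029) on the overloaded arrays, and the tendon transcription factor Scx rose 1.39-fold. The summed intensity of the tendon list ran from 8335 to 11772 (median 9794) on the untreated and from 19037 to 23638 (median 19760.4) on the overloaded arrays, and its part in the matrix results was not tested.

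Most matrix proteases and their inhibitors rose. Of 26 tested proteases and inhibitors 22 were higher and 1 lower. Of the 26, 3 passed the intensity filter only through an overloaded group, a route that favours genes that rose. Over all 27 on the array, without the filter, 22 were higher and 1 lower. Among the 26, 14 had a more negative and 3 a more positive response than in wildtype, against 8.44% and 8.92% of all genes. The macrophage elastase Mmp12 rose 5.25-fold, the inhibitor Timp1 4.66-fold, and the membrane-bound collagenase Mmp14 4.50-fold. Timp4, an inhibitor expressed by muscle fibres and heart, ran from 795 to 1038 (median 934) on the untreated and from 334 to 511 (median 389.7) on the overloaded arrays. Its fall of 2.30-fold compared with 5.87-fold in wildtype (difference 1.35 ± 0.18, adjusted p = 1.6e-05). Among the integrins and the proteins that link the membrane to matrix and cytoskeleton 16 of 25 were higher and 7 lower (27.1% and 33.5% of all genes). The fibronectin receptor chain Itga5 rose 2.03-fold and the integrin-linked kinase Ilk 1.76-fold, whereas Dmd, dystrophin, and its partners Sgcd and Sgca fell 1.36-fold, 1.39-fold and 1.38-fold. Itga11, a collagen receptor chain of fibroblasts, rose 1.30-fold against 3.15-fold in wildtype (difference -1.28 ± 0.16, adjusted p = 4.6e-06). Of the 9 tested C1q/TNF-related genes 6 were higher and 1 lower, C1qtnf6 rising 2.37-fold next to C1qtnf3.

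**Figure D3:**
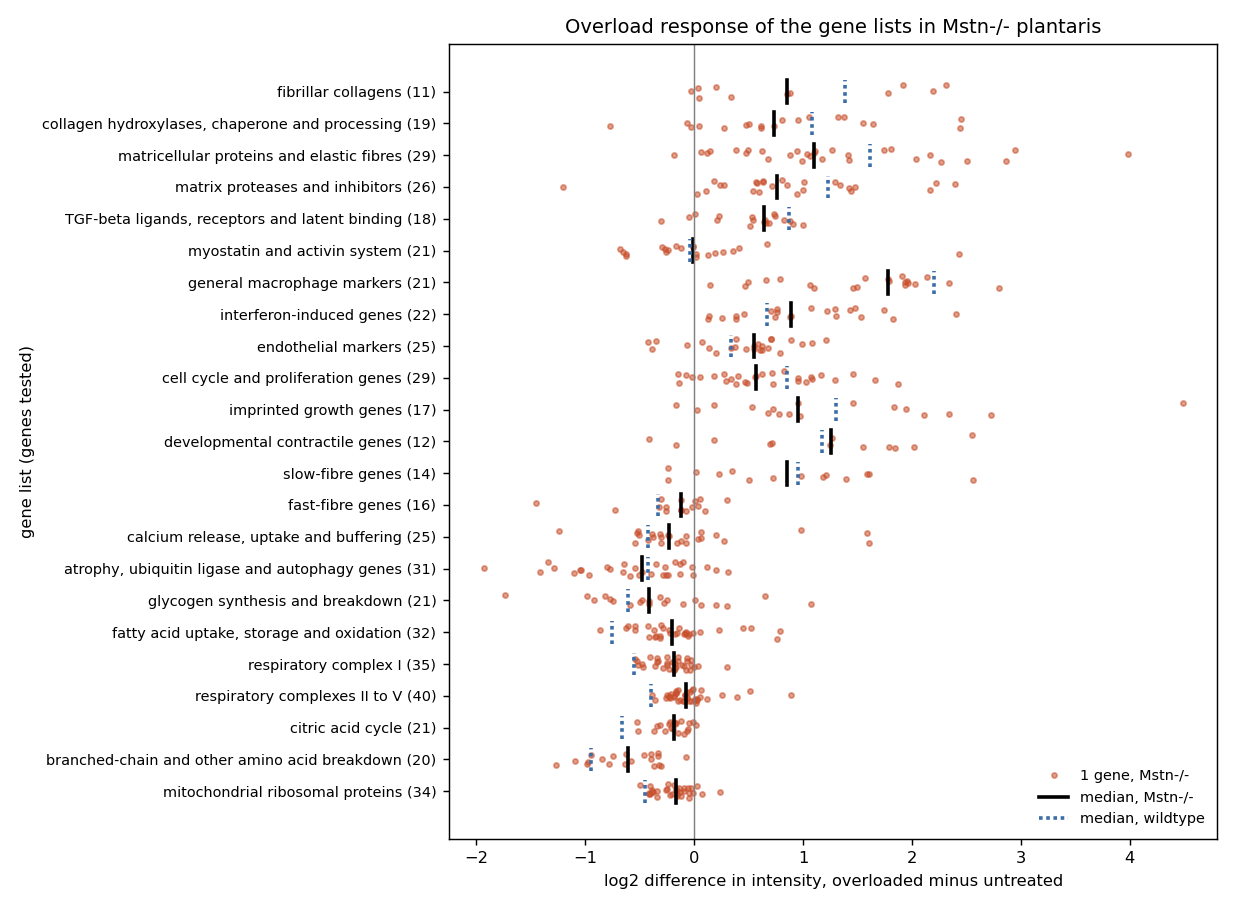
Log2 differences between overloaded and untreated muscle for the tested genes of 23 lists, 1 point per gene in Mstn-/-, with the median of the list in Mstn-/- (solid bar) and in wildtype (dotted bar). The macrophage list has the highest Mstn-/- median, at 1.78, and the list of branched-chain and other amino acid breakdown the lowest, at -0.60.

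Macrophage genes rose strongly and with a wide spread between overloaded muscles. Of 21 general macrophage markers 20 were higher and 0 lower, with a median log2 difference of 1.78 (wildtype 2.20). Of the 21, 4 passed the intensity filter only through an overloaded group, and without the filter the counts were the same. Their summed intensity ran from 5367 to 6942 (median 5935) on the untreated and from 11948 to 24759 (median 17609) on the overloaded Mstn-/- arrays. In wildtype the sums ran from 3768 to 4983 (median 4373) and from 16962 to 26661 (median 19273). Cd68, a lysosomal protein of macrophages, ran from 216 to 281 (median 247) on the untreated and from 643 to 1388 (median 1031) on the overloaded arrays. Adgre1, the F4/80 antigen, ran from 153 to 196 (median 175) on the untreated and from 490.2 to 956 (median 680.0) on the overloaded arrays, and its rise was smaller than in wildtype (difference -0.70 ± 0.21, adjusted p = 0.022). Ctss, a cathepsin of antigen-presenting cells, rose 3.87-fold. Among markers of resident and lipid-associated macrophages Apoe, C1qb, Mrc1 and Gpnmb rose 4.30-fold, 3.41-fold, 2.90-fold and 3.00-fold, and Cd163 fell 1.36-fold. Complement genes went with them, 15 of 17 higher and 1 lower. The factor B gene Cfb ran from 110.4 to 205 (median 152) on the untreated and from 364 to 691 (median 488) on the overloaded arrays, and the classical pathway protease C1s1 rose 2.85-fold, while the secreted chaperone Clu fell 1.23-fold. In the list of MHC class II genes H2-Aa, H2-Ab1 and Cd74, which present peptides to T cells, rose 3.58-fold, 3.53-fold and 3.21-fold, and their transactivator Ciita did not pass (log2 difference 0.09 ± 0.06, adjusted p = 0.17).

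Markers of lymphocytes lay mostly below the intensity filter. Of 20 lymphocyte markers on the array 11 had an overloaded mean below the intensity filter, and the summed intensity of the 20 ran from 1549 to 1655 (median 1605) untreated and from 1739 to 2162 (median 1900.3) overloaded. The T cell marker Cd3e had a log2 difference of 0.24 ± 0.07 (adjusted p = 0.004) and Cd8a of -0.08 ± 0.09 (adjusted p = 0.42), while Il7r rose 2.84-fold and the cytotoxic granule gene Nkg7 2.04-fold. Of monocyte, neutrophil and mast cell markers the monocyte receptor Ccr2 rose 1.92-fold, less than in wildtype (difference -0.96 ± 0.20, adjusted p = 0.0014). In both genotypes its untreated mean lay below the intensity filter, which it passed only through the overloaded groups, so that these sizes are uncertain. Untreated Mstn-/- muscle also had more Ccr2 than untreated wildtype muscle (log2 difference 0.51 ± 0.14, adjusted p = 0.011). The mast cell tryptase Tpsb2 fell 1.22-fold, and the neutrophil gene S100a9 did not pass (log2 difference 0.45 ± 0.23, adjusted p = 0.091). Cxcl13, a chemokine that attracts B cells, ran from 139 to 411 (median 299.9) on the untreated and from 68.1 to 124 (median 90.0) on the overloaded arrays and fell 2.82-fold. In wildtype it ran from 61.1 to 148 (median 87.7) and from 81.3 to 175 (median 128) (difference in response -1.99 ± 0.36, adjusted p = 3.9e-04).

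Nearly all interferon-induced genes rose. In the list 20 of 22 were higher and 0 lower, with a median log2 difference of 0.89 (wildtype 0.67), and the response differed from wildtype for 1 gene upward and 1 downward. Oasl2, of the oligoadenylate synthetase family, ran from 195 to 209.5 (median 202) on the untreated and from 512 to 960.3 (median 753) on the overloaded arrays. Ifit3 and Ifit1, which bind foreign RNA, rose 3.35-fold and 2.69-fold, the transcription factors Irf7 and Irf9 rose 2.78-fold and 1.85-fold, and the chemokine Cxcl9 rose 5.30-fold. Irf9 was the gene with the larger response in Mstn-/- (difference 0.35 ± 0.12, adjusted p = 0.049, and 0.067 without untreated Mstn-/- replicate 1). Interferon signalling reaches such genes through the interferon-stimulated response element. Its core, TTTC followed by any 2 bases and TTTC again, was searched on both strands of RefSeq promoters (GRCm38.p6, 250 bases before to 50 after the start). It was found in 9 of 18 matched genes of the list and in 3.44% of 32851 promoters. A gene counted if any of its promoters held the motif, while the 3.44% counts single promoters, so the shares are not in the same unit. A match describes letters and no binding. The stretches around the matches in Ifit1 (chr19:34640760-34640838, plus strand) and Ifit3 (chr19:34583348-34583441, plus strand) are shown with the motifs in capitals, since both genes carry 2 copies close together:
Ifit1: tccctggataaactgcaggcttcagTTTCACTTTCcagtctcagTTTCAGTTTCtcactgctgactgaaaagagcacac
Ifit3: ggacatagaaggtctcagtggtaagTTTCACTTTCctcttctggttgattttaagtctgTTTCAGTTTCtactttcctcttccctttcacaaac
The linked genes of antigen presentation on MHC class I moved the same way, with 9 of 10 higher and 0 lower. H2-Q4, one of several near-identical genes whose signals may mix, rose 2.11-fold and the light chain B2m 1.90-fold, and a called, more positive response was found for 3 of the 10.

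Most proliferation genes rose. In the cell cycle list 24 of 29 were higher and 0 lower, with a median log2 difference of 0.57 (wildtype 0.85), and the difference in response was called for 0 of the 29 in limma (17.4% of all genes). Of the 29 tested members 10 passed the intensity filter only through an overloaded group, a route that favours genes that rose. Over all 31 members on the array, without the filter, 26 were higher and 0 lower. Mki67, the proliferation antigen, ran from 83.0 to 110.2 (median 101) on the untreated and from 232 to 434 (median 294) on the overloaded arrays. The cyclins Ccna2 and Ccnd1 rose 3.65-fold and 2.46-fold, and topoisomerase Top2a 2.75-fold. The summed intensity of the list ran from 4555 to 4879.7 (median 4675) untreated and from 6746 to 8647 (median 7193) overloaded. Which cells divided cannot be read from whole muscle. Of 15 tested p53 targets and senescence markers 9 fell and 4 rose, against 33.5% and 27.1% of all genes. Mdm2, the ubiquitin ligase that p53 induces, fell 1.57-fold and Gadd45g 1.72-fold.

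Of the markers of other cell types, those of vessels rose by moderate amounts. Of 25 tested endothelial markers 19 were higher and 3 lower, and for 9 the response was more positive than in wildtype. Pecam1, an adhesion molecule of endothelial cells, ran from 557 to 733 (median 597) on the untreated and from 946 to 1330.0 (median 1131) on the overloaded arrays. Kdr, the main receptor for VEGF, rose 1.31-fold with a log2 difference of -0.01 in wildtype (difference 0.40 ± 0.13, adjusted p = 0.031, and 0.062 without overloaded Mstn-/- replicate 6), whereas Vegfa itself fell 1.31-fold. In the list of fibro-adipogenic progenitors, the fibroblast-like cells between fibres, 11 of 19 were higher and 3 lower. Pdgfra, their defining receptor, did not pass (log2 difference -0.04 ± 0.08, adjusted p = 0.66), while it rose 1.52-fold in wildtype (difference -0.64 ± 0.11, adjusted p = 2.6e-04). The summed intensity of the progenitor list ran from 20346 to 24496 (median 20779) untreated and from 27334 to 32202 (median 31056) overloaded. That of the endothelial list ran from 12123 to 13206 (median 12432) and from 15994 to 18018 (median 16715). Adipocyte markers had 3 of 11 genes higher and 1 lower, against 27.1% and 33.5% of all genes. Fabp4 and Pparg rose 1.70-fold and 1.66-fold, and Adipoq and Plin1 had no call (log2 differences 0.36 and -0.13). Of 14 tested smooth muscle and pericyte markers 8 were higher and 4 lower, against 27.1% and 33.5% of all genes. Smooth muscle actin Acta2 rose 2.37-fold and the pericyte channel subunit Abcc9 fell 1.49-fold. The tested erythrocyte markers Alas2 and Slc4a1 had no call (log2 differences -0.37 and -0.04). Myelin genes spread widely within both groups, the summed intensity of their list running from 5097 to 10684 (median 7373) untreated and from 7127 to 9127 (median 8009.5) overloaded. The part of any of these cell types in the results was not tested.

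Of 12 developmental contractile genes 10 rose and 0 fell, most slow-fibre genes rose, and 9 of 16 fast-fibre genes fell. Myosin heavy chain genes are close in sequence, and their signals may mix. Myh3, embryonic myosin heavy chain, ran from 96.0 to 140.1 (median 113) on the untreated and from 516 to 925 (median 625) on the overloaded arrays, and Myh8, the perinatal form, rose 3.60-fold. Of the adult heavy chains Myh1 and Myh2, the 2X and 2A forms, rose 1.23-fold and 1.17-fold, and Myh4, the 2B form, ran from 11904 to 12492 (median 12268) on the untreated and from 8910.0 to 11148 (median 10469.6) on the overloaded arrays. The fall of Myh4 was 1.20-fold (adjusted p = 0.027, and 0.084 after quantile normalization), against 2.12-fold in wildtype (difference in response 0.82 ± 0.14, adjusted p = 2.6e-04). Slow Myh7 did not pass (log2 difference 0.02 ± 0.26, adjusted p = 0.96), running from 181 to 321 (median 216) on the untreated and from 188 to 309 (median 214) on the overloaded arrays, with overlapping groups. In the slow-fibre list 9 of 14 were higher and 2 lower. Slow troponins Tnni1, Tnnt1 and Tnnc1 rose 5.90-fold, 2.63-fold and 2.31-fold. Atp2a2, the slow calcium pump, rose 3.04-fold against 1.91-fold in wildtype (difference 0.67 ± 0.19, adjusted p = 0.016), and Casq2, the slow calcium store protein, 3.00-fold. Both were lower in untreated Mstn-/- than in untreated wildtype muscle (log2 differences -1.48 and -1.22) and stayed lower under overload (-0.81 and -0.66). Of the 14 slow-fibre genes 11 were lower and 0 higher in untreated Mstn-/- muscle (median log2 difference -1.33), against 10.2% and 11.1% of all genes. Of the fast-fibre genes 1 was higher and 9 lower (wildtype 0 and 12), and 8 differed in response, each with a more positive value in Mstn-/-. Pvalb, the calcium buffer of fast fibres, did not pass (log2 difference -0.07 ± 0.07, adjusted p = 0.35), and Mylk4, a myosin light chain kinase, fell 1.65-fold against 5.31-fold (difference 1.68 ± 0.28, adjusted p = 1.8e-04).

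More calcium handling and excitability genes fell than rose. Of 25 calcium genes 5 were higher and 15 lower, and for 14 the value was more positive than in wildtype. Mrln, a small membrane peptide that inhibits the calcium pump, fell 2.35-fold, and the voltage sensor Cacna1s 1.42-fold. Of 16 ion channel and excitability genes 12 were lower and 1 higher, the potassium channels Kcnj2 and Kcnj12 falling 2.22-fold and 2.10-fold. At the Z-disc and in repair 12 of 35 were higher and 8 lower (27.1% and 33.5% of all genes), with Ankrd1, a stretch-responsive ankyrin repeat protein, up 3.47-fold and the annexins Anxa1 and Anxa2 up 2.93-fold and 3.09-fold. Tcap, the titin cap, had a log2 difference of -0.02 ± 0.10 against -1.01 in wildtype (difference 0.99 ± 0.14, adjusted p = 2.9e-05). In the satellite cell list 16 of 31 were higher and 8 lower, against 27.1% and 33.5% of all genes. The fusion factor Mymk and the differentiation factor Myog rose 3.43-fold and 2.38-fold, Myod1 fell 1.44-fold, and Pax7, the satellite cell marker, did not pass (log2 difference 0.05 ± 0.06, adjusted p = 0.48). Runx1, a transcription factor that rises in denervated muscle, ran from 252 to 337 (median 261) on the untreated and from 1051 to 1673 (median 1321) on the overloaded arrays, and acetylcholine receptor subunits moved apart, Chrna1 and Chrng rising 1.86-fold and 1.62-fold and the adult subunit Chrne falling 1.25-fold.

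Muscle microRNA loci rose in Mstn-/- muscle, and the test of the difference in response is given here for Mir133a-1 only. The hairpin genes Mir1a-1, Mir133a-2, Mir1a-2 and Mir133a-1, which encode the microRNAs most typical of striated muscle, rose 1.51-fold, 1.61-fold, 1.75-fold and 1.42-fold in Mstn-/-, and in wildtype the last 3 fell 1.48-fold, 1.56-fold and 2.24-fold while Mir1a-1 had a log2 difference of -0.35 (adjusted p = 0.094). Mir133a-1 ran from 104 to 244 (median 154) on the untreated and from 176 to 259.9 (median 224) on the overloaded arrays in Mstn-/- and from 224 to 414 (median 322) and 105 to 204 (median 133) in wildtype (difference in response 1.67 ± 0.26, adjusted p = 9.7e-05). The Mstn-/- groups overlapped, and these values also come from hairpins or host transcripts.

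Genes of the respiratory chain fell less in Mstn-/- than in wildtype. Of 35 complex I genes 1 was higher and 19 lower in Mstn-/-, with a median log2 difference of -0.18, while 34 were lower in wildtype with a median of -0.55. The difference in response was called for 27 of the 35, each time more positive in Mstn-/-, against 8.92% of all genes. Complexes II to V had 4 genes higher and 12 lower of 40, the share of falls being near the 33.5% of all genes. Their median was -0.07 in Mstn-/- (-0.06 for all genes) and -0.40 in wildtype, with a called difference for 26. In the citric acid cycle 10 of 21 fell in Mstn-/- and 21 in wildtype, with a called difference for 17. These counts of falls move with the scaling. After the shift to an equal median 27 complex I genes, 18 of complexes II to V and 14 of the citric acid cycle were lower in Mstn-/-, and after quantile normalization 18, 8 and 6. In the same order 9, 12 and 7 genes were lower and 3, 2 and 0 higher in untreated Mstn-/- than in untreated wildtype muscle. Over all genes these shares were 10.2% and 11.1%. Ndufs6, an accessory subunit of complex I, ran from 713 to 1275 (median 1012) on the untreated and from 564 to 1013 (median 636) on the overloaded arrays, with overlapping groups. Its fall was 1.46-fold against 2.90-fold in wildtype (difference 0.99 ± 0.21, adjusted p = 0.0014). Cox6a1, the non-muscle form of a cytochrome oxidase subunit, rose 1.85-fold, and its muscle counterpart Cox6a2 fell 1.19-fold. Of the mitochondrial ribosomal protein genes 19 of 34 were lower and 1 higher, with 34 lower in wildtype and a called difference for 19. Cytosolic ribosomal proteins had 13 of 28 higher and 0 lower, against 27.1% and 33.5% of all genes.

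**Figure D4:**
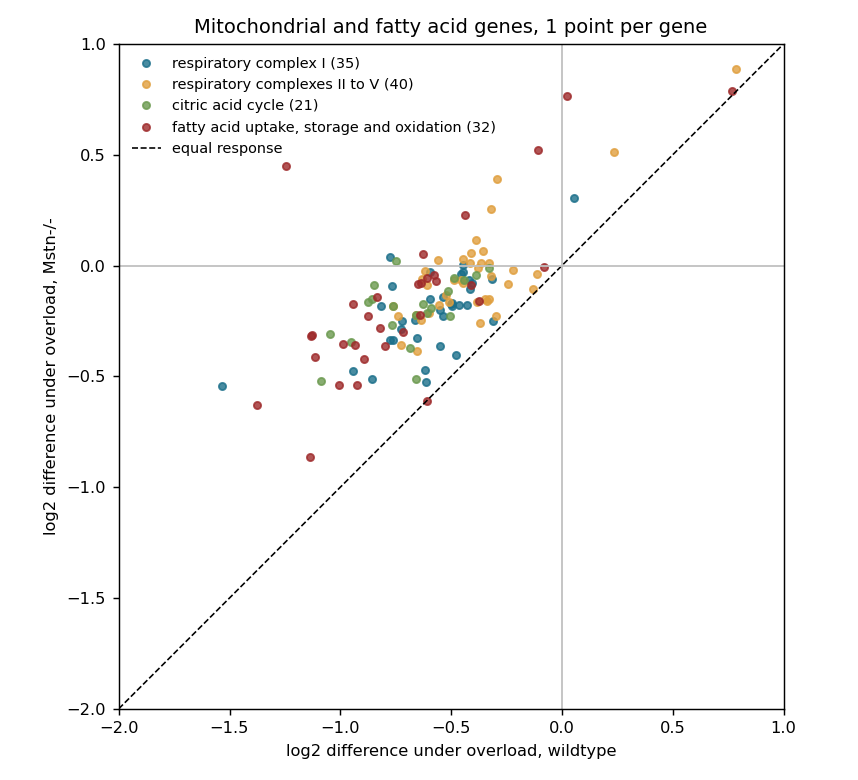
Log2 difference under overload in Mstn-/- (vertical axis) against wildtype (horizontal axis) for the tested genes of 4 lists, 1 point per gene, with a dashed line where the responses are equal. Most points lie above the line, the median of complex I being -0.18 in Mstn-/- and -0.55 in wildtype.

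Genes of fat use also fell less in Mstn-/-. Of 32 genes of fatty acid uptake, storage and oxidation 5 were higher and 15 lower in Mstn-/- (wildtype 1 and 28), with medians of -0.20 and -0.76, and 27 had a called, more positive response. Before overload, 20 of the 32 were lower and 0 higher in Mstn-/- than in wildtype muscle (median log2 difference -0.27). Over all genes these shares were 10.2% and 11.1%. The uncoupling protein Ucp3 ran from 349 to 919.6 (median 654) on the untreated and from 602 to 1061 (median 884) on the overloaded arrays in Mstn-/- and from 992 to 1467 (median 1300.2) and 413 to 666 (median 575) in wildtype. The Mstn-/- groups overlapped, and the wildtype groups did not. It rose 1.37-fold in Mstn-/- (adjusted p = 0.032, but 0.063 without overloaded replicate 6 and 0.12 without untreated replicate 1) and fell 2.37-fold in wildtype (difference 1.69 ± 0.25, adjusted p = 5.2e-05). Acacb, the carboxylase whose product restrains fat oxidation, and Slc27a1, a fatty acid transporter, fell 1.82-fold and 1.55-fold. Among the transcriptional regulators Ppargc1a, encoding the coactivator PGC-1alpha, ran from 1212 to 1328 (median 1249) on the untreated and from 960.4 to 1619 (median 1350.0) on the overloaded arrays, overlapping and without a call (adjusted p = 0.59), and fell 2.47-fold in wildtype (difference 1.38 ± 0.17, adjusted p = 4.4e-06). Ppara fell 1.51-fold and Rxrg 1.91-fold, and Pparg, the regulator of fat cells, rose 1.66-fold.

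Most genes of carbohydrate and amino acid breakdown fell. Of 22 glycolysis genes 15 fell and 3 rose. Pfkfb3, which sets the level of a glycolytic activator, fell 2.76-fold, and the lactate transporter Slc16a3 2.19-fold. Of 21 glycogen genes 14 fell and 4 rose, with Gbe1, the branching enzyme, down 1.88-fold and Pgm2 and Pygb up 2.11-fold and 1.57-fold. Of 20 genes of branched-chain and other amino acid breakdown 19 fell, with a median of -0.60 (wildtype -0.94), and for 18 of them the groups did not overlap. Bcat2, the aminotransferase that starts the breakdown of branched-chain amino acids in muscle, ran from 928 to 1128 (median 987) on the untreated and from 446 to 585 (median 539) on the overloaded arrays, a fall of 1.93-fold (1.88-fold in wildtype). Glul, glutamine synthetase, ran from 5354 to 6184 (median 5667) on the untreated and from 2252 to 3107 (median 2692) on the overloaded arrays. Got2, a mitochondrial aminotransferase, was the member without a call (log2 difference -0.08 ± 0.07, adjusted p = 0.37). Of 23 amino acid transporters 10 were higher and 9 lower, against 27.1% and 33.5% of all genes. Slc38a1, which carries glutamine into cells, rose 2.73-fold, and Slc38a4 fell 2.58-fold beside Slc43a1. Slc38a2 fell 1.19-fold in Mstn-/- and rose 1.18-fold in wildtype (difference -0.48 ± 0.08, adjusted p = 1.6e-04). In lipid and cholesterol synthesis 5 of 22 were higher and 7 lower, near the shares of all genes, and 3 were higher and 10 lower after the shift to an equal median or quantile normalization, malic enzyme Me1 falling 2.54-fold and the phosphatidate phosphatase Lpin1 2.29-fold. Of 9 tested carbonic anhydrases, which interconvert carbon dioxide and bicarbonate, 6 fell and 1 rose, Car4 and Car14 among the falls and Car13 up 1.70-fold. Of 24 antioxidant genes 7 were higher and 10 lower, against 27.1% and 33.5% of all genes, with Prdx4 up 1.80-fold and Nqo1 down 2.33-fold. Nmrk2, a kinase of the NAD salvage pathway, rose 1.54-fold in Mstn-/- and fell 1.86-fold in wildtype (difference 1.52 ± 0.19, adjusted p = 6.4e-06).

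In the IGF and insulin list 9 of 27 were higher and 10 lower, near the shares of all genes (27.1% and 33.5%). Igf1 ran from 325 to 519.8 (median 376) on the untreated and from 1528 to 1989 (median 1773) on the overloaded arrays, a rise of 4.53-fold, with 4.61-fold in wildtype. The binding proteins Igfbp4, Igfbp3 and Igfbp7 rose 3.95-fold, 2.13-fold and 2.08-fold. Pik3r1, the regulatory subunit of phosphoinositide 3-kinase, ran from 2612 to 3342 (median 3031) on the untreated and from 1218 to 1425 (median 1298) on the overloaded arrays, a fall of 2.29-fold. In wildtype it ran from 1125 to 1344 (median 1232) and from 1134 to 1514 (median 1228) (log2 difference 0.04, difference in response -1.24 ± 0.10, adjusted p = 3.5e-09). The insulin receptor Insr fell 1.39-fold and the glucose transporter Slc2a4 1.83-fold. Of 26 interleukin 6 and FGF family genes 9 were higher and 10 lower, also near the shares of all genes (27.1% and 33.5%), the transducer Stat3 rising 1.60-fold and Il15 falling 1.49-fold.

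Most genes of muscle protein breakdown fell. Of 31 atrophy, ubiquitin ligase and autophagy genes 23 fell and 3 rose, with a median of -0.48 (wildtype -0.42). Trim63, the ubiquitin ligase MuRF1, ran from 1904 to 2219 (median 2088) on the untreated and from 750.3 to 908 (median 822) on the overloaded arrays. Asb2 and Fbxo31, substrate adaptors of other ubiquitin ligases, fell 2.67-fold and 2.43-fold, and Klf15, a glucocorticoid-responsive factor, 2.05-fold. Foxo1, a transcription factor that drives Fbxo32 and Trim63, had a log2 difference of -0.13 ± 0.05 (adjusted p = 0.048, and 0.074 without overloaded replicate 6), and its relative Foxo3 one of -0.11 ± 0.05 (adjusted p = 0.1, and 0.033 without untreated replicate 1). Of 32 proteasome subunits 11 fell and 1 rose, a share of falls near the 33.5% of all genes. After the shift to an equal median 18 were lower and 1 higher, and after quantile normalization 10 were lower and 5 higher. Genes of the lysosome went the other way, 18 of 23 tested rising and 1 falling, beside the macrophage sums above, whose part in this was not tested. Of the protein synthesis lists, aminoacyl-tRNA synthetases and ATF4-linked genes had 17 of 27 lower and ribosome biogenesis 14 of 26, against 33.5% of all genes. Myc rose 1.76-fold. In the endoplasmic reticulum, where collagen is folded, 18 of 26 were higher and 4 lower, Pdia3 and the coat protein Sec24d rising 2.50-fold and 2.47-fold.

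Clock genes responded differently in Mstn-/- and in wildtype muscle. In the core clock list 4 of 11 were higher and 4 lower, against 27.1% and 33.5% of all genes. The difference in response was called for 5 of the 11 upward and 2 downward, against 8.92% and 8.44% of all genes. The core clock is a loop in which Arntl and Clock activate genes through E-box motifs, the Per and Cry proteins and Ciart repress that activation, and Nr1d1, Nr1d2 and the Ror factors set Arntl itself. Arntl ran from 495 to 656 (median 556) on the untreated and from 146 to 201 (median 162) on the overloaded arrays, a fall of 3.42-fold. In wildtype it ran from 272 to 347 (median 308) and from 294 to 327 (median 314) (log2 difference 0.03 ± 0.08, adjusted p = 0.75), so that the difference in response was -1.80 ± 0.11 (adjusted p = 5.4e-11). Clock fell 1.57-fold. The repressors Per1, Per2, Per3 and Ciart rose 1.67-fold, 1.80-fold, 2.04-fold and 1.93-fold, whereas their wildtype log2 differences were -0.31, -0.18, -0.51 and -1.36. Dbp, an output factor driven by Arntl and Clock, ran from 303 to 395 (median 331) on the untreated and from 893 to 1158 (median 1027) on the overloaded arrays in Mstn-/- and from 806 to 924 (median 888) and 492 to 636 (median 536) in wildtype. It rose 3.02-fold in Mstn-/- and fell 1.60-fold in wildtype (difference 2.27 ± 0.11, adjusted p = 2.4e-13). Nr1d1 fell in both genotypes, 1.46-fold and 1.67-fold, while Nr1d2 rose 1.22-fold and fell 1.70-fold. Of 8 tested output and loop factors 2 rose and 3 fell (27.1% and 33.5% of all genes), against 0 and 7 in wildtype (30.3% and 35.6%). Tef and Hlf, relatives of Dbp, did not pass in Mstn-/- (log2 differences 0.13 and -0.06) and fell 1.47-fold and 1.63-fold in wildtype. The cell cycle kinase Wee1, also a clock output, rose 3.32-fold against 1.34-fold (difference 1.31 ± 0.15, adjusted p = 2.6e-06).

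Many clock genes differed between the untreated groups already. Of 11 core clock genes 4 were higher and 5 lower in untreated Mstn-/- than in untreated wildtype muscle, and of 8 output and loop factors 2 and 4, while Hlf and Tef had no call (log2 differences -0.18 and -0.15). Over all genes 3091 differed between the untreated groups (21.3%), 1616 higher (11.1%) and 1475 lower (10.2%) in Mstn-/-, and 5293 between the overloaded groups (36.5%), 2540 higher (17.5%) and 2753 lower (19%). Untreated Mstn-/- muscle had more Arntl than untreated wildtype muscle (log2 difference 0.89 ± 0.08, adjusted p = 7.7e-09) and less Dbp (-1.38 ± 0.08, adjusted p = 4.5e-12), Per3 (-0.71 ± 0.08, adjusted p = 2.0e-07) and Ciart (-1.14 ± 0.17, adjusted p = 2.5e-05). Under overload the sign turned, with Arntl lower (-0.91 ± 0.08, adjusted p = 5.9e-09) and Dbp higher (0.89 ± 0.08, adjusted p = 5.6e-09) in Mstn-/- than in wildtype. The sources used here do not give the hour at which each group was sampled, and the hour and the groups cannot be told apart. Promoter stretches are shown for 4 of these genes with the E-box CACGTG, a palindrome, or the D-box TTANGTAA, the motif of Dbp and its relatives, in capitals. They come from RefSeq (GRCm38.p6) and were searched on both strands from 250 bases before to 50 after the start. The genes are Ciart (chr3:95882242-95882369, minus strand), Per1 (chr11:69098758-69098813, plus strand), Cry1 (chr10:85185084-85185139, minus strand) and Per3 (chr4:151044791-151044895, minus strand):
Ciart: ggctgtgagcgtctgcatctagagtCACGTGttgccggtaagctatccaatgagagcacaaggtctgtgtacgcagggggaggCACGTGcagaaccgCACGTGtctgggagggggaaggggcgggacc
Per1: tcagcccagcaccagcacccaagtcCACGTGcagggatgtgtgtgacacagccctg
Cry1: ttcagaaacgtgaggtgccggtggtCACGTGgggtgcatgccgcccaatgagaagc
Per3: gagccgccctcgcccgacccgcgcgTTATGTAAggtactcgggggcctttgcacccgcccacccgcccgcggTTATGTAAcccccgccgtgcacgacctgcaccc
Ciart carries 3 E-boxes and Per3 2 D-boxes. The E-box was found in 4 of 9 matched core clock genes and in 7.15% of 32851 promoters, and the D-box in 1 of 9 and in 2.32%. Here too a gene counted if any of its promoters held the motif, while the percentages count single promoters. Cry1 holds an E-box as Per1 does, and it fell 1.28-fold while Per1 rose. No match in a window says only that these letters are not in it.

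**Figure D5:**
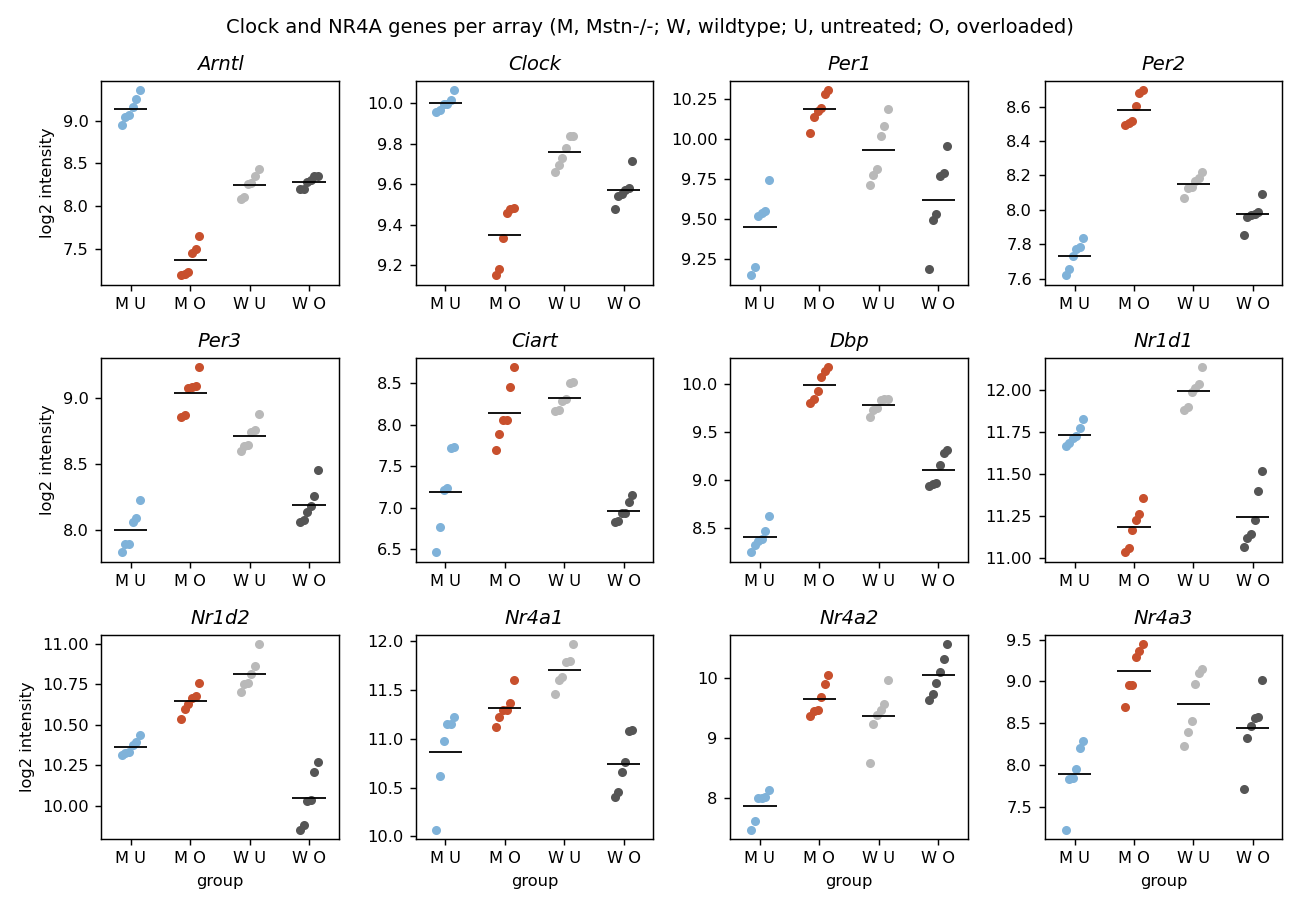
Log2 intensity per array of 9 clock genes and 3 NR4A genes in untreated (U) and overloaded (O) Mstn-/- (M) and wildtype (W) muscle, 6 arrays per group, with the group mean as a bar. Overloaded Mstn-/- arrays are the lowest for Arntl and above the untreated Mstn-/- arrays for Per2, Per3 and Dbp.

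The NR4A nuclear receptors, which respond quickly to contraction and hormones, also moved apart. Nr4a3 ran from 150.0 to 314 (median 239) on the untreated and from 415 to 696 (median 563) on the overloaded arrays in Mstn-/-, a rise of 2.34-fold, and from 299 to 568 (median 436) and 209.9 to 516 (median 365) in wildtype (difference in response 1.51 ± 0.27, adjusted p = 4.1e-04). Nr4a2 rose 3.42-fold against 1.60-fold, and Nr4a1 rose 1.37-fold in Mstn-/- and fell 1.95-fold in wildtype (difference 1.42 ± 0.22, adjusted p = 7.0e-05). Of 23 immediate early and NR4A genes 16 were higher and 1 lower, Fosl2, Myc and Atf3 rising 1.75-fold, 1.76-fold and 1.99-fold. In the glucocorticoid-responsive list 5 of 20 were higher and 10 lower, against 27.1% and 33.5% of all genes. Fkbp5 and Zbtb16, both induced by the hormone in many tissues, fell 2.49-fold and 2.20-fold.

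Other genes with the largest differences in response lay outside these groups. A larger response in Mstn-/- was found for the deubiquitinase gene Otud1, which rose 3.35-fold (wildtype log2 difference 0.34, difference 1.40 ± 0.24, adjusted p = 2.3e-04), and for Tcim, which rose 2.14-fold (wildtype log2 difference -0.13, difference 1.23 ± 0.16, adjusted p = 1.4e-05). A smaller response was found for Ostn, the muscle peptide osteocrin, which fell 2.16-fold against 7.16-fold (difference 1.73 ± 0.26, adjusted p = 5.4e-05) and whose intensity ran from 127 to 168 (median 150.4) on the untreated and from 56.4 to 78.1 (median 67.8) on the overloaded arrays. Also smaller were the falls of the water channel Aqp4 (1.27-fold against 3.75-fold), the ubiquitin ligase adaptor Asb15 (1.55-fold against 4.81-fold), the phospholipase Plcd4 (1.77-fold against 5.01-fold) and Smco1 (1.47-fold against 4.18-fold). Aqp4 and Asb15 were lower in untreated Mstn-/- than in untreated wildtype muscle (log2 differences -0.92 and -0.97) and higher under overload (0.64 and 0.66). Opposite calls were found for Ky, a protein needed for muscle upkeep, which rose 1.57-fold in Mstn-/- and fell 1.87-fold in wildtype (difference 1.55 ± 0.17, adjusted p = 1.1e-06), and for Coq10b, a mitochondrial coenzyme Q-binding protein, which rose 2.17-fold and fell 1.48-fold (difference 1.68 ± 0.16, adjusted p = 2.0e-07).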

How the data were processed

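Total RNA of plantaris muscle was labelled by random priming after removal of ribosomal RNA and hybridised to whole-transcript arrays, per the labels' protocols. The deposited values are probe set intensities on a linear scale, made by the authors with RMA per the submitters' processing notes, version not stated. They were taken to log2 without a pseudocount. Of 34760 probe sets 21640 carried 1 gene symbol in the platform annotation, 1321 several and 11799 none, and only the first kind was used. Genes with a group mean above the 30th percentile (intensity 98.9) were fitted with limma 3.58.1 in R 4.3.3 as a 4-group model over all 24 arrays with 20 residual degrees of freedom, and p-values were adjusted by Benjamini-Hochberg over 14499 genes. The fit was tested on simulated data. The number of arrays limits the precision, the median SE of a log2 difference being 0.0672. The comparison was overload minus untreated in Mstn-/-, and the same difference minus that in wildtype. Deviations of same-numbered samples correlated between -0.08 and 0.05, which gives no sign that the numbers pair samples but cannot exclude it.

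The genes described and the gene lists were chosen with earlier results of these data known. A rule set which genes could be named, and not every gene it allowed is described. It allowed Mstn, the 12 largest rises and falls without overlap between the groups, and up to 6 members per list and direction by adjusted p. It also allowed any member of lists of 14 or fewer and the 8 genes with the most larger, smaller or opposite response. Defining cell-type markers and the genes varying most closely with Mest, Mstn, Arntl and Fbxo32 were allowed as well. Chosen after their values were seen, outside that rule, were the microRNA genes, Rtl1 and Dlk1 of the imprinted domain, the microRNA genes of muscle other than Mir133a-1, and Asb2, Cox6a2, Ctss, Foxo1, Foxo3, Got2, Gpnmb, Id1, Ifit1, Ifit3, Insr, Irf7, Itga11, Kdr, Lama2, Ltbp1, Mmp12, Ndufs6, Nr4a1, Pax7, Pdgfra, Pecam1, Peg3, Ppargc1a, Pvalb, Slc38a2, Tcap, Thbs2, Timp1 and Top2a. Alternatives were quantile normalization, a shift of arrays to the same median, filters at the 50th percentile or none at all, the mean of a gene's probe sets, a fit of the 12 Mstn-/- arrays alone, a trended robust variance, array weights and the replicate number as a block. The fits without overloaded replicate 6 and without untreated replicate 1, both Mstn-/-, were added after seeing the data.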

Additional observations from a re-analysis of the deposited data

Results flagged for a closer look

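In 23 of 526 groups of 6 Mstn-/- arrays, taken over the named genes, 1 array stood apart, with a gap to its nearest neighbour of more than 0.625 of the range of the group (the value beside each gene). Chance alone marks about 1 in 20 such groups. The lowest untreated array stood apart for Acta2 (0.773), Rxrg (0.749), Slc38a2 (0.629), Smco1 (0.666), Tef (0.656) and Wnt4 (0.649). The highest untreated array stood apart for Bcat2 (0.629), Bmp1 (0.649), Ifit3 (0.719), Irf7 (0.809), Lpin1 (0.890), Mmp14 (0.776), Runx1 (0.653), Smad2 (0.766), Tgfbr2 (0.656) and Timp1 (0.684). The lowest overloaded array stood apart for Car14 (0.727), Gpnmb (0.690) and Lum (0.700). The highest overloaded array stood apart for Cd163 (0.658), Mir666 (0.653), Ndufs6 (0.695) and Slc38a4 (0.700).

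The response to overload differed between the genotypes, by limma's test of the difference itself, for all 37 genes whose difference the report gives, which were named in part for that difference. On the log2 scale the response in Mstn-/- minus that in wildtype was most positive among them for Dbp (2.27), Ostn (1.73), Ucp3 (1.69), Coq10b (1.68), Mylk4 (1.68), Mir133a-1 (1.67), Ky (1.55) and Nmrk2 (1.52). Next came Nr4a3 (1.51), Nr4a1 (1.42), Otud1 (1.40), Ppargc1a (1.38), Timp4 (1.35), Wee1 (1.31), Tcim (1.23) and Mstn (1.18). It was also positive for Ndufs6 (0.99), Tcap (0.99), Myh4 (0.82), Atp2a2 (0.67), Kdr (0.40) and Irf9 (0.35). It was most negative for Cxcl13 (-1.99), Arntl (-1.80), Ccn3 (-1.64), Acan (-1.45), Meg3 (-1.33), Itga11 (-1.28), Pik3r1 (-1.24) and Lox (-1.14). Negative differences were also found for Ccr2 (-0.96), Adgre1 (-0.70), Pdgfra (-0.64), Fbxo32 (-0.58), Tgfbr1 (-0.55), Acvr2a (-0.49) and Slc38a2 (-0.48).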

How the results depend on the processing

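The counts of genes higher, lower, at least 2-fold higher or lower, and different in response stayed within 1.5 times their reported size under every alternative run. Higher genes numbered from 3295 (arrays shifted to the same median) to 4117 (array weights), and lower genes from 3837 (50th percentile filter) to 6767 (arrays shifted to the same median). With the replicate number as a block 3818 genes were higher, 4616 lower and 2169 different in response. Genes with a different response numbered from 2094, without overloaded Mstn-/- replicate 6, to 2832 after quantile normalization, with 2175 without untreated Mstn-/- replicate 1. The median shift of a gene's log2 difference from the deposited scaling was at most 0.06 in size. The median difference of all tested genes was -0.06 as deposited, -0.09 after quantile normalization and -0.13 after the shift to an equal median.

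Of 263 named genes 256 kept their call in Mstn-/- under each alternative, and 231 kept that on the difference in response, with no reversal in either. The calls on Foxo1, Myh4, Rtl1 and Ucp3 were lost and those on Foxo3, Mir540 and S100a9 were gained under at least 1 alternative. The cause was not tested. Fold sizes are uncertain where the untreated mean lay below the intensity filter. Examples are Ccl8, Acan, Ccr2, Ccna2 and the 6 microRNA genes with the largest folds. Sham-operated muscle, the length of the overload and the hour of sampling were not analysed here.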

Other observations

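Within the 6 untreated and 6 overloaded Mstn-/- arrays some genes varied together after the group means had been taken out. These values describe 12 arrays of whole muscle, which share their hybridisation and their mixture of cells, so that no p is given. Mest went most closely with Slc30a7 (r = 0.90) and Abr (r = 0.87), while the gene ranked hundredth had r = 0.72. Fbxo32 went with Adh1 (r = 0.93), Arntl with Eif2a (r = 0.91) and Mstn with Vax1 (r = 0.90), and the genes ranked hundredth for these had r = 0.70, 0.72 and 0.74.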
